A study of Mus musculus with 3 samples.

Results

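The HSP70 family genes of mouse splenic B cells were examined in the RNA of 2 libraries, 1 from PBS-treated and 1 from SJMHE1-treated allergic mice. The 10 genes Hspa1a, Hspa1b, Hspa1l, Hspa2, Hspa4, Hspa4l, Hspa8, Hspa9, Hspa13 and Hspa14 were taken by name from a table of 27088 genes, and all 10 had a row. They were chosen by family name and with the log2 FPKM ratio between these libraries already known, so that ratio is given as a description throughout. Female BALB/c mice, 6 weeks old at the start, made up 3 groups named Control, PBS and SJMHE1. The PBS and SJMHE1 mice were both made allergic to ovalbumin (OVA): they received 10 µg OVA with 2 mg Al(OH)3 into the peritoneum on days 0, 7 and 14, and then 100 µg OVA into the nose daily from day 21 to day 27 and again from day 29 to day 35. On days 0, 14 and 28 the PBS mice were injected with phosphate-buffered saline and the SJMHE1 mice with 10 µg SJMHE1, a peptide from the HSP60 of the blood fluke Schistosoma japonicum. By the study's methods the peptide was emulsified in incomplete Freund's adjuvant, which is not named for the PBS injection, so peptide and adjuvant cannot be told apart here. On day 36 the mice were killed, B cells were sorted from the spleens, and the samples of 3 mice were mixed into 1 library for each group. With 1 library for each group, the injection also cannot be told apart from differences between the pools in handling, sorting or library preparation. The part of these steps in the ratios was not tested. The labels give an age of 13 weeks, which does not match the start age and the day of killing. The Control library, from healthy mice, was not analysed here.

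HSP70 proteins are chaperones that bind unfolded stretches of other proteins and release them in a cycle driven by ATP. HSP40 proteins (the Dnaj genes) deliver clients and start ATP hydrolysis, and nucleotide exchange factors reset the chaperone by replacing ADP with ATP. Some family members are made at all times in the cytosol, in mitochondria or on ribosomes, while Hspa1a and Hspa1b are the classical heat-inducible genes, switched on by heat shock factor 1 when proteins unfold.

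Of the 10 members, the 3 with the highest ratio lie side by side in the major histocompatibility complex on chromosome 17. In the deposited coordinates (mm10, minus strand), Hspa1b (ENSMUSG00000090877) spans chr17:34956436-34959238 and Hspa1a (ENSMUSG00000091971) spans chr17:34969190-34972156, each as 1 exon with no intron and 9951 bases apart. Hspa1l (ENSMUSG00000007033) starts on the plus strand 546 bases beyond the start of Hspa1a, at chr17:34972703-34979285, and has 2 exons. Promoter windows, from 250 bases before to 50 bases after the start site, were found for 7 of the 10 members in RefSeq (GRCm38.p6); Hspa8, Hspa9 and Hspa13 had no entry. The 150 bases before the RefSeq start site are printed for the 3 genes of the cluster and, for comparison, for Hspa2. The coding sequence of Hspa2 is also close to that of Hspa1a, but the level of Hspa2 was not higher in the SJMHE1 library. The RefSeq start of Hspa2 lies inside the deposited gene (chr12:76404176-76406938), and so do its printed bases. Those of the 3 cluster genes end at the deposited start. The RefSeq start of Hspa4l also lies inside its deposited span. Sequences run 5′ to 3′ along each gene's own strand, and capitals mark GAANNTTC, a core of the heat shock element that heat shock factors bind, and CCAAT or its reverse complement ATTGG, the box bound by NF-Y. They are Hspa1b at chr17:34959239-34959388 (minus strand), Hspa1a at chr17:34972157-34972306 (minus strand), Hspa1l at chr17:34972553-34972702 (plus strand) and Hspa2 at chr12:76404220-76404369 (plus strand).
Hspa1b: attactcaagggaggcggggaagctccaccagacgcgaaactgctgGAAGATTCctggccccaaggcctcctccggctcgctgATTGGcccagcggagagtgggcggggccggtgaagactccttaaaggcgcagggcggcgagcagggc
Hspa1a: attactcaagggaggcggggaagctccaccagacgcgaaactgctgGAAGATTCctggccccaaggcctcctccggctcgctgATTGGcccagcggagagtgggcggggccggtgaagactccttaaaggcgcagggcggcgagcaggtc
Hspa1l: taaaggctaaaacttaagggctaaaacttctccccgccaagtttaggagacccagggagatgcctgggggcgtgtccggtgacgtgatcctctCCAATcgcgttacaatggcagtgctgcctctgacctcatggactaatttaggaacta
Hspa2: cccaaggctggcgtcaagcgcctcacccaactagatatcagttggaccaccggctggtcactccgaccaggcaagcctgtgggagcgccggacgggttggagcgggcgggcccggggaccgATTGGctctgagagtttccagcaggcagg

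The printed windows of Hspa1a and Hspa1b differed at 1 of 150 bases (99.3% identical), and their whole 250 bases before the start differed at 3 (98.8% identical). GAANNTTC, which is its own reverse complement, was found in Hspa1a and Hspa1b, at positions -104 to -97 relative to the start in both, and in none of the other 5 members with a window. It is held by 7.86% of 32851 RefSeq promoter windows of the same length, which are all those used and include none on chromosome 18. CCAAT, on either strand, was found at positions -67 to -63 of Hspa1a and Hspa1b, -57 to -53 of Hspa1l, -29 to -25 of Hspa2 and at 3 places in Hspa14, but not in Hspa4 or Hspa4l, and 37.4% of all windows hold it. TTCNNGAA, TATAAA and the longer heat shock element made of 3 alternating GAA units, searched on both strands, were in none of the 7 windows, against 8.52%, 13.6% and 0.603% of all windows. GAANNTTC and TTCNNGAA both lie inside the longer element, so their matches can overlap. A missing match says only that these letters are not in the window.

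The values used were counts per gene and FPKM (fragments per kilobase of transcript, scaled to the mapped fragments of the library), a level per length that allows genes to be compared. Counts summed to 48267168 in the PBS and 51280237 in the SJMHE1 library. With 1 library a group there is no replicate spread and no test, so each ratio describes these 2 pooled libraries. Its 95% interval (exact Clopper-Pearson on the counts, or a normal approximation for summed FPKM) covers counting error only. A gene was compared when its FPKM reached 1 in at least 1 library and was above 0 in both, which left 12433 genes and all 10 members. For all genes compared, the log2 ratio (SJMHE1 to PBS) had a median of -0.01, and the middle 90% lay between -0.82 and 0.64. The 12 B cell markers used were all detected in both libraries, summing to 7541 FPKM in PBS and 7871 in SJMHE1. The 14 T cell markers summed to 89.8 FPKM in PBS and 41.3 in SJMHE1, with 12 of 13 compared at a log2 ratio below -1. Markers of NK cells (5 of 6 found, 13.66 and 6.27 FPKM), dendritic cells (6 genes, 7.83 and 3.78) and plasma cells (6 genes, 651.57 and 547.92) also summed lower in SJMHE1, and those of erythroid cells (7 genes, 151.31 and 197.56) higher. The 9 macrophage and monocyte markers summed to 121.56 and 62.58 FPKM, mostly through Lyz2 (88.79 and 37.40), and were mixed, with Cd14 at a log2 ratio of 1.04 and 3 of 8 compared higher. The 6 neutrophil markers summed to 315.16 and 415.28 FPKM through S100a8 and S100a9, while the other 4 were lower in SJMHE1 and the median log2 ratio was -0.25. No marker found was at 0 in either library. The part of these other cells in the chaperone values was not tested, and in bulk RNA more cells with a transcript and more transcript per cell cannot be told apart.

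Compared with the PBS library, the SJMHE1 library held more RNA of the inducible genes Hspa1a and Hspa1b and of Hspa8. Hspa1l and Hspa4l, both at low levels, were higher as well. The other 5 members, among them the mitochondrial and the ribosome-associated ones, lay within 0.3 of a log2 ratio of 0. Of the 10 members, 4 had a log2 ratio above 1 (Hspa1b, Hspa1a, Hspa1l and Hspa8), where the background was 2.43% of all genes compared, and 0 had a log2 ratio below -1, where it was 3.57%. The members were chosen with this ratio known, so nothing is read from that difference. Above 0 lay 6 of the 10 members, beside 47.7% of all genes, and the median log2 ratio of the 10 was 0.43. Hspa4l, at 0.83, was the member next below the threshold, and Hspa8, at 1.02, the member next above it.

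**Figure D1:**
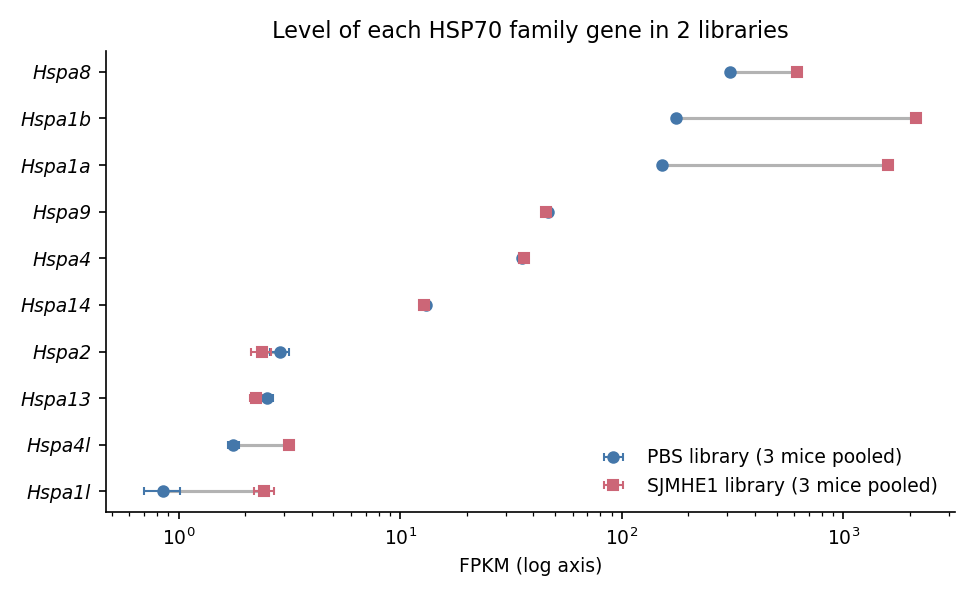
Level of each HSP70 family gene in FPKM (log axis) in the PBS library (circles) and the SJMHE1 library (squares), with bars for the 95% Poisson interval of the count. The widest gaps are those of Hspa1b (175.67 and 2127.31 FPKM) and Hspa1a (152.69 and 1597.97 FPKM), while the points of Hspa9, Hspa4 and Hspa14 lie on each other.

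Hspa1b, which encodes the inducible cytosolic HSP70, had 27027 counts and 175.67 FPKM in the PBS library and 346459 counts and 2127.31 FPKM in the SJMHE1 library. Its level was 12.1-fold higher in SJMHE1 (log2 ratio 3.60, 95% interval 3.58 to 3.62). Hspa1a, whose coding sequence is 99.6% identical to that of Hspa1b and which encodes almost the same protein, had 24866 counts and 152.69 FPKM in PBS and 275475 counts and 1597.97 FPKM in SJMHE1. The level of Hspa1a was 10.5-fold higher in SJMHE1 (log2 ratio 3.39, 3.37 to 3.41). Among all genes in the table, Hspa1b stood 215th from the top by FPKM in PBS and 18th in SJMHE1, and Hspa1a 250th and 22nd. Of the genes compared, 0.0804% had a higher ratio than Hspa1b and 0.0965% a higher one than Hspa1a. The share of the pair's counts given to Hspa1a was 47.9% (95% interval 47.5 to 48.3) in PBS and 44.3% (44.2 to 44.4) in SJMHE1, so the intervals did not overlap and Hspa1b led in both libraries. How the authors' counting placed reads that fit both genes is not given in the sources used here, and 58.8% of the 50-base windows of the Hspa1a transcripts are also in Hspa1b. Added together, which needs no such split, the counts of the pair went from 51893 to 621934. Summed FPKM of the pair went from 328.36 to 3725.28, 11.3-fold higher (log2 ratio 3.50). Because FPKM divides each gene by its own length, that sum still depends in part on the split. Gm20481, annotated on the strand opposite to Hspa1a, had 0 counts in PBS and 65 in SJMHE1, few beside those of Hspa1a.

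Hspa8 encodes HSC70, the constitutive cytosolic chaperone that also strips clathrin from coated vesicles. It had 72435 counts and 306.82 FPKM in PBS and 155214 counts and 621.09 FPKM in SJMHE1, 2.02-fold higher (log2 ratio 1.017, 1.005 to 1.030), and 2.39% of genes had a higher ratio. Hspa8 (chr9:40800984-40810087, plus strand, 9 exons) shares 74.8% of its 50-base windows with 13 other annotated genes, of which 8 were in the table. The largest by counts was Gm15459 (ENSMUSG00000100801), a processed pseudogene of 1 exon at chr5:5781615-5783555 on the minus strand, which alone shares 70.0% of the windows. Gm15459 was listed at 428.39 FPKM (45641 counts) in PBS and 856.16 FPKM (96556 counts) in SJMHE1, a level per length above that of Hspa8 in both libraries. Its log2 ratio was 0.999 (0.983 to 1.02), and its interval overlapped that of Hspa8. The 8 genes together held 65.4% as many counts as Hspa8 in PBS and 64.2% as many in SJMHE1. Whether these reads came from Hspa8 or from the copies was not tested. With their counts added to those of Hspa8, in an alternative chosen after seeing the data, the log2 ratio was 1.002 (0.992 to 1.012) on scaled counts, close to the threshold of 1.

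Hspa1l, an HSP70 known chiefly from developing sperm, was the least abundant member in PBS with 115 counts and 0.85 FPKM, and had 349 counts and 2.43 FPKM in SJMHE1. That was 2.86-fold higher (log2 ratio 1.52, 1.21 to 1.83), with the widest interval among the members above 1. The gene overlaps Gm10501 (chr17:34976899-34981788), annotated as antisense, with which it shares 71.4% of its 50-base windows. Gm10501 had 55 counts and 0.45 FPKM in PBS and 509 counts and 3.98 FPKM in SJMHE1 (log2 ratio 3.14, 2.74 to 3.57). Hspa1l also shares 9.57% of its windows with Hspa1a and 7.72% with Hspa1b. No source used here says that the counting used strand, so the RNA of Hspa1l, of Gm10501 and of the neighbouring pair cannot be told apart at these few reads. Added to Gm10501, in an alternative chosen after seeing the data, Hspa1l went from 170 to 858 counts (log2 ratio 2.25 on scaled counts, 2.01 to 2.49).

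**Figure D2:**
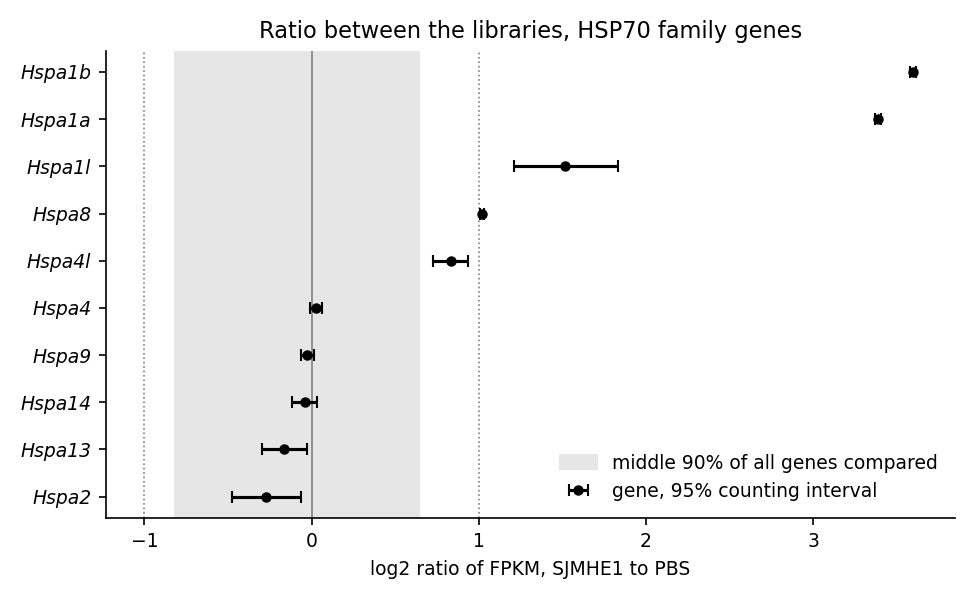
Log2 ratio of FPKM, SJMHE1 to PBS, for the 10 genes, with bars for the 95% counting interval, a grey band for the middle 90% of the 12433 genes compared and dotted lines at -1 and 1. Of the 10 genes, 5 lie to the right of the band (Hspa1b, Hspa1a, Hspa1l, Hspa8 and Hspa4l) and 5 inside it.

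Hspa4l and Hspa4 encode HSP110-type proteins, large relatives that serve as nucleotide exchange factors for HSP70. Hspa4l had 1121 counts and 1.77 FPKM in PBS and 2105 counts and 3.15 FPKM in SJMHE1, 1.78-fold higher (log2 ratio 0.83, 0.73 to 0.94). With Hspa4l, 5 of the 10 members lay above 1.5-fold, where 5.73% of all genes compared did, and 0 lay as far below, where 7.91% did. Hspa4 had 10770 counts and 35.49 FPKM in PBS and 11606 counts and 36.13 FPKM in SJMHE1, with a log2 ratio of 0.026 (-0.012 to 0.064). The coding sequences of these genes are 68.6% identical, and Hspa4 was 20.1-fold more abundant in PBS and 11.5-fold more in SJMHE1 by FPKM.

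Hspa9, Hspa14 and Hspa13 work in other places in the cell. Hspa9 (mortalin), the HSP70 of the mitochondrial matrix, had 10957 counts and 46.31 FPKM in PBS and 11395 counts and 45.49 FPKM in SJMHE1 (log2 ratio -0.026, -0.064 to 0.012). Hspa14, which binds the ribosome together with the HSP40 protein Dnajc2, had 2929 counts and 13.14 FPKM in PBS and 3011 counts and 12.76 FPKM in SJMHE1 (log2 ratio -0.042, -0.12 to 0.032). It overlaps Gm45902 on the same strand, at 3.43 and 2.67 FPKM, and shares 15.6% of its windows with it. Hspa13, a short microsomal relative that lacks the usual client-binding part, had 945 counts and 2.51 FPKM in PBS and 892 counts and 2.24 FPKM in SJMHE1 (log2 ratio -0.16, -0.30 to -0.031). Hspa2, known for its role in meiosis of sperm precursors, had 416 counts and 2.86 FPKM in PBS and 365 counts and 2.37 FPKM in SJMHE1 (log2 ratio -0.27, -0.48 to -0.065). Hspa2 had the lowest ratio of the family although its coding sequence is 79.9% identical to that of Hspa1a, above Hspa8 at 74.7% and below Hspa1l at 83.6%. The counting intervals of Hspa4, Hspa9 and Hspa14 included equality, which does not show that their levels were the same.

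By FPKM in PBS the order was Hspa8, Hspa1b, Hspa1a, Hspa9, Hspa4, Hspa14, Hspa2, Hspa13, Hspa4l and Hspa1l, and only the intervals of the neighbours Hspa2 and Hspa13 overlapped. In SJMHE1 it was Hspa1b, Hspa1a, Hspa8, Hspa9, Hspa4, Hspa14, Hspa4l, Hspa1l, Hspa2 and Hspa13, and the intervals of Hspa1l and Hspa2 and of Hspa2 and Hspa13 overlapped. Hspa8 stood 1.75-fold above Hspa1b and 2.01-fold above Hspa1a in PBS, whereas in SJMHE1 Hspa1b stood 3.43-fold and Hspa1a 2.57-fold above Hspa8. With Gm15459 added, Hspa8 had 251770 counts in SJMHE1, beside 346459 for Hspa1b and 275475 for Hspa1a. These are counts and not levels per length, so no order of the genes is read from them.

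The 10 genes together summed to 738.11 FPKM in PBS and 4450.94 FPKM in SJMHE1, 6.03-fold higher, and took 0.314% and 1.57% of all counts. Hspa1a and Hspa1b made up 44.5% of the family's FPKM in PBS and 83.7% in SJMHE1, and Hspa8 41.6% and 14.0%. Of the difference of 3712.83 FPKM between the libraries, 91.5% came from Hspa1a and Hspa1b. Without them the other 8 genes summed to 409.75 and 725.66 FPKM (1.77-fold), and without Hspa8 as well the other 7 summed to 102.93 and 104.57 FPKM (log2 ratio 0.023, -0.0015 to 0.047).

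**Figure D3:**
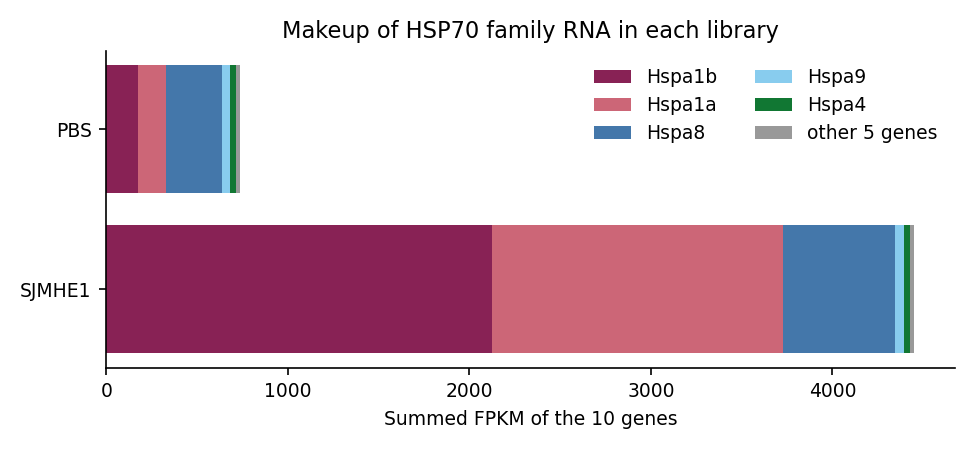
Summed FPKM of the 10 HSP70 family genes in each library, divided by gene, with Hspa1l, Hspa2, Hspa4l, Hspa13 and Hspa14 drawn as the other 5 genes. The bar reaches 738.11 FPKM in PBS and 4450.94 FPKM in SJMHE1, and Hspa1a and Hspa1b fill 44.5% of the first and 83.7% of the second.

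Genes whose ratio was most like that of the inducible pair were sought among the 4137 other genes that reached 10 FPKM in each library, as those with the highest log2 ratio over these 2 libraries. The first was Dnajb1, the main HSP40 partner of inducible HSP70, at 70.89 FPKM in PBS and 359.71 in SJMHE1 (log2 ratio 2.34). Hsph1, an HSP110 nucleotide exchange factor, followed at 36.01 and 174.11 FPKM (2.27). Ighj1, a joining segment of the immunoglobulin heavy chain locus, came next at 61.69 and 205.64 FPKM (1.74), on 180 and 634 counts. Hspe1, the mitochondrial co-chaperonin HSP10, had 38.33 and 110.15 FPKM (1.52), and Dnaja1, another cytosolic HSP40, had 43.68 and 123.74 FPKM (1.502). All 5 lay below Hspa1a, at 3.39, and 4 of the 5 encode chaperones or co-chaperones. The share of such genes among the 4137 was not counted. The minimum of 10 FPKM left out genes nearer the pair than Dnajb1, among them Hspb1 (2.44, 8.19 FPKM in PBS) and Gm10501 (3.14, 0.45 FPKM in PBS). The 5 lowest were Gm23935 and Gm24270 (both -2.43), Lars2 (-2.20), which encodes the mitochondrial leucyl-tRNA synthetase, Gm10736 (-2.14) and Gm10076 (-2.02), and none is a gene of the chaperone lists.

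**Figure D4:**
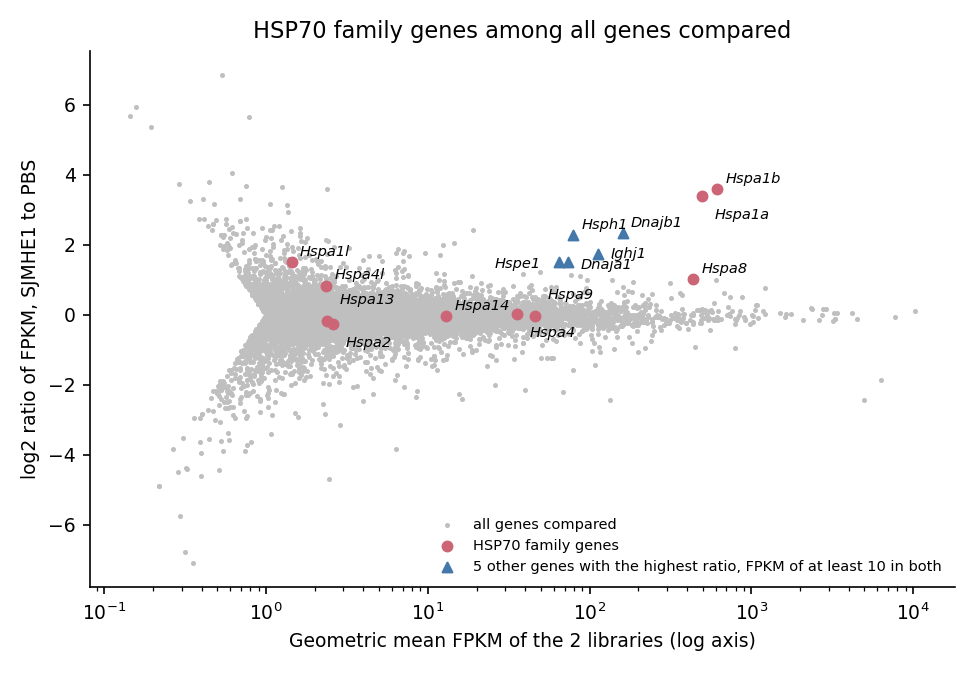
Log2 ratio of FPKM, SJMHE1 to PBS, against the geometric mean FPKM of both libraries (log axis) for the 12433 genes compared (grey), the HSP70 family genes (circles) and the 5 other genes with the highest ratio among those reaching 10 FPKM in each library (triangles). Hspa1b and Hspa1a lie at 3.60 and 3.39, above each of the 4137 other genes that reached 10 FPKM in both.

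Partners of HSP70 and other chaperone genes were counted by lists written with earlier results of these data known, so their counts are descriptions. Over 9 lists of chaperones and their regulators, 95 genes that are not family members were compared, and 6 of them (6.32%) had a log2 ratio above 1, beside 2.43% of all genes. None had a log2 ratio below -1, and the median was 0.077 beside -0.01 for all genes. The 6 genes were Hspb1, Dnajb1, Hsph1, Hspe1, Dnaja1 and Bag3. Above 1.5-fold there were 13 (13.7%), beside 5.73% of all genes.

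Among HSP40 co-chaperones 2 of 35 genes compared lay above a log2 ratio of 1 and 0 below -1, with a median of 0.030. These were Dnajb1 and Dnaja1, and the lowest was Dnajc30 (4.33 and 3.33 FPKM, -0.38), while Dnajb9, the most abundant of the list in PBS at 71.59 FPKM, had 60.30 FPKM in SJMHE1. Among nucleotide exchange factors 2 of 13 lay above 1 (median 0.026). Beside Hsph1 this was Bag3, an exchange factor that directs clients to autophagy, on 191 and 525 counts (1.36 and 3.52 FPKM, 1.37, interval 1.13 to 1.62). Bag1, the most abundant exchange factor in PBS, had 45.21 and 37.08 FPKM, and Sil1, the exchange factor of the endoplasmic reticulum, had the lowest ratio at -0.40. The other HSP70 and HSP110 genes were Hsph1, Hyou1 (0.47) and Hspa5, the endoplasmic reticulum HSP70 known as BiP (233.55 and 283.24 FPKM, 0.28), 1 of 3 past 1 with a median of 0.47, and Hspa12a and Hspa12b were too low to compare.

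The list of HSP70-HSP90 adaptors and ubiquitin ligase had 0 of 14 genes past 1 in either direction (median 0.12). Chordc1 was highest at 0.84 and Unc45a lowest at -0.25, while Stip1, the most abundant in PBS, had 46.72 and 81.45 FPKM. Of HSP90, small heat shock and chaperonin genes, 2 of 16 lay above 1 and 0 below -1 (median 0.22). These were Hspb1, which encodes the small chaperone HSP27, at 8.19 and 44.42 FPKM (2.44), and Hspe1. Hspd1, the chaperonin HSP60 that works with Hspe1, had 67.94 and 134.82 FPKM (0.99, interval 0.95 to 1.02), Hsp90ab1 was the most abundant at 541.97 and 837.23 FPKM (0.63), and Hspb11 was lowest at -0.25. Mitochondrial partners of Hspa9 had 1 of 12 above 1 (Hspe1, median 0.026), Hspd1 being the most abundant and Grpel1, the exchange factor of Hspa9 itself, the lowest at -0.21. The 3 genes of the ribosome-bound list (Dnajc2, Naca and Btf3) had a median of -0.13. They ran from 0.019 for Dnajc2 to -0.22 for Btf3, the most abundant at 138.83 and 119.60 FPKM. Of 16 endoplasmic reticulum chaperones 0 lay past 1 in either direction, although 14 were higher in SJMHE1, and the median was 0.34, with Hsp90b1 highest at 0.57, Sil1 lowest and Hspa5 most abundant.

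Of the heat shock factors, Hsf1 and Hsf2 could be compared, while Hsf4 (0.28 and 0.57 FPKM) and Hsf5 (34 and 0 counts) were too low. Hsf1, which encodes the main activator of inducible HSP70 genes, had 7.35 FPKM in PBS and 7.93 in SJMHE1 (log2 ratio 0.11), and Hsf2 had 1.46 and 1.28 FPKM (-0.19). None of the 6 factors and regulators compared lay past 1 (median -0.13); Fkbp4 was highest at 0.53, Hsbp1 lowest at -0.21, and Eef1a1 the most abundant at 3403.43 and 3018.57 FPKM. The RNA level of a factor does not measure its activity.

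**Figure D5:**
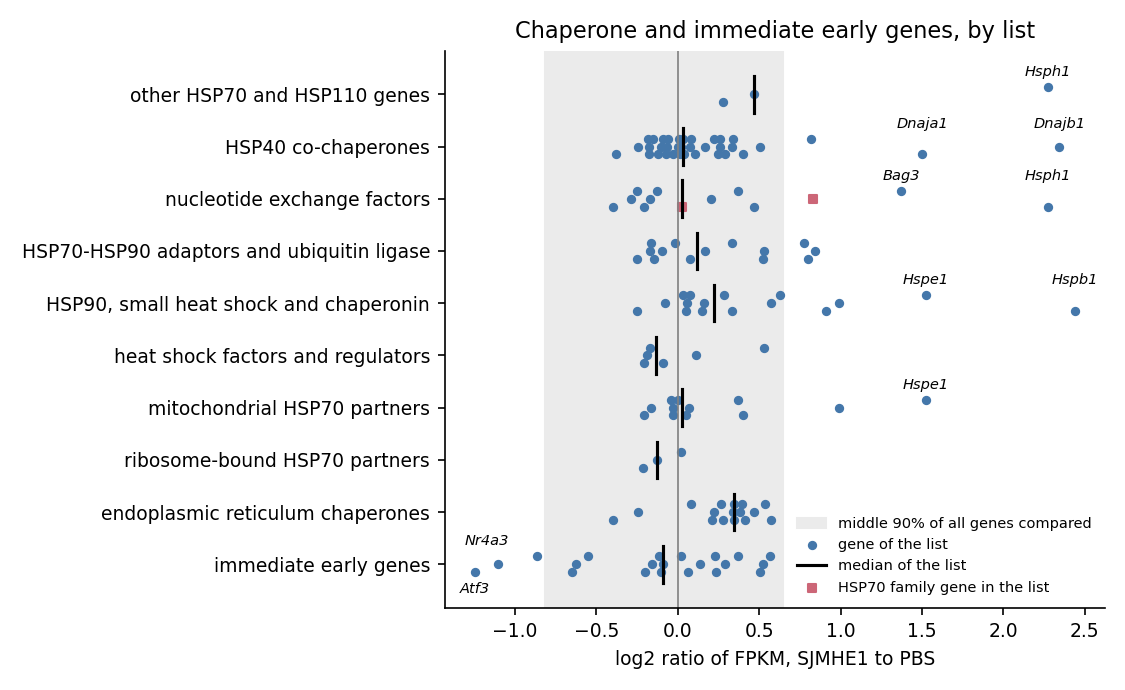
Log2 ratio of FPKM, SJMHE1 to PBS, of each gene compared in 10 lists, with a black line at each list's median, squares for HSP70 family genes and a grey band for the middle 90% of all genes. Genes past -1 or 1 are named: Hsph1, Dnajb1, Dnaja1, Bag3, Hspb1 and Hspe1 on the right, Atf3 and Nr4a3 on the left.

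GAANNTTC, the motif of the Hspa1a and Hspa1b promoters, was also counted in the promoters of the genes compared in the 9 chaperone lists. A gene was counted when any of its windows held the motif. The shares given beside these counts are of windows (32851 windows of 27025 genes), which is a different unit. Of the 6 list genes above a log2 ratio of 1, 5 held it (Bag3, Dnaja1, Hspb1, Hspe1 and Hsph1), while Dnajb1 did not. Of the 74 genes of these 9 lists at or below 1 that had a window, 8 held it, beside 7.86% of all windows used. TTCNNGAA was in 2 of the 6 and 10 of the 74, beside 8.52% of all windows. Either of these motifs was in 5 of the 6 and 15 of the 74, beside 15.1%. The genes were split by a ratio already known, so nothing is read from the difference. These matches describe letters in a window and not binding, and genes of a list are not independent of each other.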

How the data were processed

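RNA sequencing of rRNA-depleted total RNA was analysed from sorted splenic B cells, 1 library of 3 mixed samples for each group. The authors deposited 1 table with a count per gene (whole numbers, not normalized) and an FPKM value (rounded to 2 decimals), made on the LC-Bio Cloud Platform. The submitters' processing notes name bcl2fastq 2.0, HISAT2, StringTie, DESeq2, limma and the build mm10, without role or order, and the annotation release and strand setting are not given in the sources used here. Of the value columns, 4 were used, and 2 whose name matches no sample's label were not.

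The log2 ratio of FPKM, SJMHE1 to PBS, was computed without a pseudocount for genes that reached 1 FPKM in 1 or both libraries and 0 FPKM in neither, and called past 1 or below -1. edgeR's quasi-likelihood test could not be fitted with 1 library per group. Intervals (95%) are exact Clopper-Pearson for shares and for ratios of single genes or added counts, and exact Poisson for levels. For ratios of summed FPKM they are a normal approximation with the Poisson variances added. All cover counting error only. By the 1-sided 95% limit, a count of 0 allows up to 3 counts. The members and gene lists were chosen with earlier results of these data known. Named were all 10 members, list genes past 1 or -1 and each list's highest, lowest and most abundant gene, the 5 highest and 5 lowest other genes reaching 10 FPKM in each library, and markers by sum, count and range. An item of the B cell marker list is not reported here. Others named beside them were chosen after their values were seen. Gene models and 50-base windows came from GENCODE M21 (GRCm38), where 9 of 10 members had the deposited coordinates (Hspa4l starts elsewhere). Promoters came from RefSeq, without chromosome 18. Scripts were checked on simulated data and used Python 3.11.15, pandas 2.3.3, scipy 1.17.1, biopython 1.88, matplotlib 3.10.9 and, for TMM factors, edgeR 4.0.16 in R 4.3.3. Alternatives were other scalings, pseudocounts, filters and thresholds, and sums over genes that share sequence.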

Additional observations from a re-analysis of the deposited data

How the results depend on the processing

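No paired analysis was possible because there is 1 library a group and no test was fitted, and for the same reason no replicate could be left out. The number of HSP70 family genes past a log2 ratio of 1 was 4, and 3 to 5 under the alternatives. It was 3 with a pseudocount of 1 (Hspa1l at 0.89), with an FPKM of at least 5 in 1 library or 1 in both, and with Hspa1a and Hspa1b as 1 gene, and 5 at 1.5-fold. Over the alternatives Hspa1b ranged from 3.50 to 3.68, Hspa1a from 3.38 to 3.50, Hspa8 from 1.002 to 1.100 and Hspa1l from 0.89 to 2.25. Hspa9 and Hspa14 turned above 0 with median-of-ratios size factors (0.019 and 0.0024) and with FPKM rescaled to equal sums (0.057 and 0.041). The list counts moved as follows. Nucleotide exchange factors and immediate early genes each had 1 gene past the threshold instead of 2 with a pseudocount of 1 and with the FPKM minimum of 5. Mitochondrial partners had 2 instead of 1 (Hspd1 beside Hspe1) with TMM factors, median-of-ratios factors, equal FPKM sums, the sum without HSP70 genes, and at 1.5-fold. Under those 4 scalings Hspd1 also took the HSP90, small heat shock and chaperonin genes from 2 to 3. At 1.5-fold, HSP40 genes and nucleotide exchange factors had 3 each instead of 2 (with Dnaja4 and Hspa4l). At that threshold the list of adaptors and ubiquitin ligase had 3 (Chordc1, Stip1 and Ahsa1). There, HSP90, small heat shock and chaperonin genes had 5 (with Hspd1, Hsp90aa1 and Hsp90ab1). Immediate early genes also had 5 at 1.5-fold, all lower in SJMHE1 (with Nr4a2, Nr4a1 and Ier3). With no filter on low values other than above 0 in both libraries, heat shock factors had 1 (Hsf4). No scaling moved the median of all genes by more than 0.083. Depth limited Hspa1l and Bag3, with 115 and 191 counts in PBS.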

Other observations

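Immediate early genes, which are switched on fast by many stimuli without new protein synthesis, ranged from 2.65 to 853.67 FPKM in PBS and from 1.23 to 1050.32 FPKM in SJMHE1 and had ratios in both directions. Of 21 genes compared, 0 had a log2 ratio above 1 and 2 had one below -1, beside 2.43% and 3.57% of all genes compared, with a median of -0.090. Atf3, a stress-responsive transcription factor, had 77.20 FPKM in PBS and 32.50 in SJMHE1 (-1.25), and Nr4a3, an orphan nuclear receptor, had 2.65 and 1.23 FPKM (-1.11). Egr1, a zinc finger factor, was highest at 305.06 and 452.37 FPKM (0.57). Jund, the most abundant in PBS, had 853.67 and 766.02 FPKM, and Fos, the most abundant in SJMHE1, had 731.15 and 1050.32 FPKM.

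The 9 genes known from regulatory B cells summed to 89.77 FPKM in PBS and 81.86 in SJMHE1, with a median log2 ratio of -0.18. Above 1 lay 0 of them and below -1 lay 1, beside 2.43% and 3.57% of all genes, and 2 were higher in SJMHE1 (Ebi3 at 0.29 and Cd1d1 at 0.14). The other 7 had ratios below 0: Cd5, Havcr1 (-0.573), Il10 (-0.569), Cd9 (-0.35), Fcrl5 (-0.18), Tgfb1 (-0.16) and Prdm1 (-0.077). The counting interval of Prdm1, on 709 and 711 counts, was -0.23 to 0.075 and included equality. Il10 had 1.78 FPKM on 129 counts in PBS and 1.20 FPKM on 92 counts in SJMHE1. The gene below -1 was Cd5, at 1.94 and 0.74 FPKM (-1.39), which T cells also express, and 12 of 13 T cell markers compared lay below -1 as well. The part of T cells in the value of Cd5 was not tested.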
